A study of Mus musculus with 2 samples.

Results

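Conjunctival epithelial cells are described here as the cells to which the authors' deposited cell table gives exactly the class name Conj. They numbered 3404 of 33885 cells, of which 1840 were in the dry eye library and 1564 in the control library. The data were single-cell transcriptomes of epithelium released from mouse corneas, made as 2 libraries with a droplet method that counts unique molecular identifiers (UMIs) at the 3′ ends of transcripts. The mice were 7 males of the strain C57BL/6J, 10 weeks old. To model dry eye, the extra-orbital and intra-orbital lacrimal glands of the right side were removed, and tissue was taken on day 9. The dry eye library pooled the right eyes of 6 mice, with 1 more left out after a surgical injury, and the control library pooled the 7 left eyes of the same animals. Side of the body thus went with treatment, and the 2 cannot be told apart. Each group was a single pooled library, so no difference has a replicate check, no test between groups was possible, and the 95% intervals given with values cover counting error only.

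The conjunctiva is the mucous membrane that lines the eyelids and the front of the sclera and meets the cornea at the limbus, the rim that holds the corneal epithelial stem cells. Its stratified, non-cornified epithelium makes mucosal keratins such as Krt4, Krt13 and Krt19, carries membrane-bound mucins at its surface and contains mucus-secreting goblet cells. The corneal epithelium is instead marked by the keratin Krt12. The lacrimal gland supplies the watery part of the tear film, and conjunctiva and cornea share that film. The labels call the material corneal epithelium and do not name conjunctiva, so the class rests on the deposited annotation.

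Conj cells of the dry eye library held 25894002 UMIs in all and those of the control library 20389823. A Conj cell had a median of 10457 UMIs and 2318 genes in dry eye and of 10094 UMIs and 2372.5 genes in control, and the median mitochondrial share was 1.72% in dry eye and 1.88% in control. Of all cell barcodes, 74 occurred in both libraries. None of these was a Conj cell in both, and in each library 9 Conj cells shared a barcode with a cell of another class in the other. The class made up 11.2% of the cells in dry eye (10.7 to 11.7) and 8.96% in control (8.54 to 9.39).

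The name was first checked against 6 marker genes, whose levels are given as CPM, the gene's UMIs per 1000000 UMIs of the summed class. Krt4, a keratin of mucosal stratified epithelia (chromosome 15, 101918535 to 101924735, mm10), had 2468 CPM in dry eye Conj cells and 1580.4 CPM in control Conj cells. Among the classes with at least 100 cells in each library, the next for Krt4 was LSC, with 360.1 CPM in dry eye and 234 CPM in control. Serpinb3a, an inhibitor of proteases (chromosome 1, 107045587 to 107052303), had 368 CPM in dry eye and 207 CPM in control Conj cells. Its control level was close to that of control LSC cells, at 220.2 CPM, whereas dry eye LSC cells had 140.3 CPM. The lipoxygenases Alox12e and Alox15, which add oxygen to polyunsaturated fatty acids and lie beside each other on chromosome 11 (70315610 to 70322628 and 70344152 to 70352031), had fewer counts. Alox12e had 123 CPM in dry eye and 72.7 CPM in control, and Alox15 had 28.8 CPM in dry eye and 8.93 CPM in control.

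Both cytochrome P450 markers belong to families that oxidise foreign chemicals. Cyp2a5 (chromosome 7, 26835305 to 26843548) had 324 CPM in dry eye and 375 CPM in control Conj cells, and no other class of at least 100 cells per library exceeded 16.3 CPM in dry eye and 26.1 CPM in control. Cyp2f2 (chromosome 7, 27119909 to 27133660) had 39.2 CPM in dry eye and 27.1 CPM in control Conj cells. It was higher in LSC cells, with 71.9 CPM in dry eye and 124 CPM in control. In the dry eye library 5 of the 6 markers thus had their highest level in Conj, with Cyp2f2 as the exception, and in control 4 of 6, with Cyp2f2 and Serpinb3a as exceptions. Serpinb3a and Cyp2a5 have close relatives in the mouse genome, and the sources used here do not say how reads shared between them were counted.

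**Figure D1:**
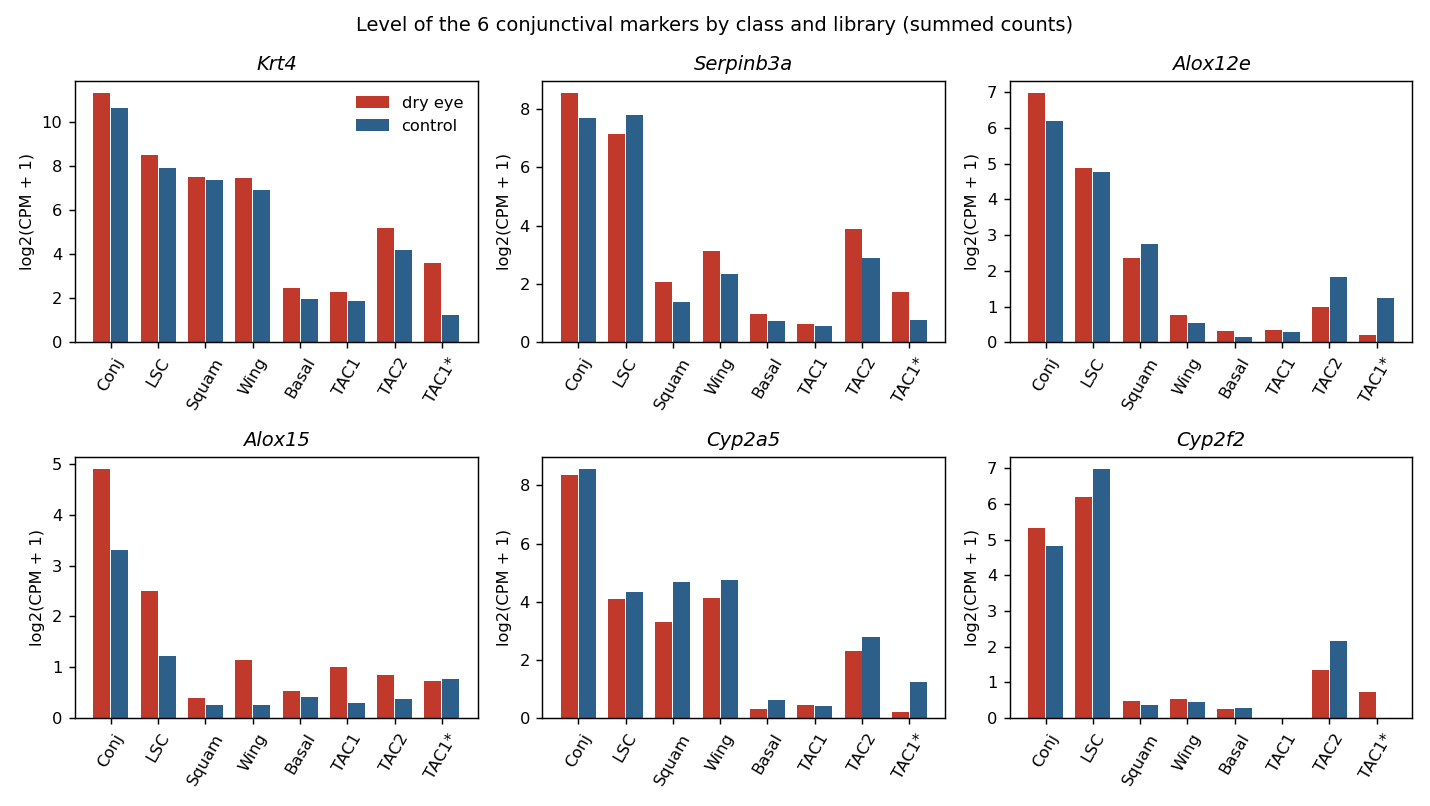
Levels of the 6 conjunctival markers in the 8 classes with at least 100 cells in each library, as log2(CPM + 1) of summed counts, with dry eye bars left of control bars. Conj has the tallest bars for Krt4, Alox12e, Alox15 and Cyp2a5 in both libraries, while the Cyp2f2 bars are taller in LSC, with 71.9 CPM in dry eye and 124 CPM in control.

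Not every Conj cell showed a marker. With each cell thinned at random to 3000 UMIs, at least 1 of the 6 markers was counted in 76.7% of dry eye Conj cells (74.6 to 78.6) and 78.5% of control Conj cells (76.3 to 80.5). Without thinning the shares were 82.0% in dry eye and 86.6% in control. The same thinned measure gave 1.94% in dry eye and 1.23% in control for Basal cells, a corneal class that should lack these genes, whose median depths were 6126 UMIs in dry eye and 5695 UMIs in control. Squam cells lay between, at 13.5% in dry eye and 17.1% in control, as did Wing cells, at 15.9% in dry eye and 16.3% in control. Krt4 alone accounted for most of the Conj share, with 72.1% of thinned cells in dry eye and 73.1% in control. Alox15 was counted in few, with 5.26% (4.27 to 6.40) in dry eye and 2.04% (1.39 to 2.89) in control.

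The mucosal keratins and mucins beyond the 6 markers were present as well. Krt13, the partner of Krt4, had 6712 CPM in dry eye and 5351 CPM in control Conj cells, and Squam cells had 7364 CPM in dry eye and 4599.6 CPM in control. Krt19 was more restricted, with 2341 CPM in dry eye and 2212 CPM in control Conj cells against 622 CPM in dry eye and 393 CPM in control Squam cells. The membrane mucin Muc4 had 1155 CPM in dry eye and 1160 CPM in control Conj cells, and more in Squam cells, at 2270.4 CPM in dry eye and 1879 CPM in control. Muc1, another membrane mucin, had 121 CPM in dry eye and 136 CPM in control Conj cells, and Squam cells had 50.9 CPM in dry eye and 56.7 CPM in control.

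Marker lists of other cell types were close to absent or shared. Summed over its 10 measured genes, the immune list had 1.89 CPM in dry eye and 0.196 CPM in control Conj cells, and the defining genes Ptprc, Cd3g and Cd207 were at 0 in both. The goblet cell list, of which 7 of 11 genes were measured, had 37.9 CPM in dry eye and 30.7 CPM in control, with Spdef and Tff1 at 0 in both. Most of it was Agr2, a secretory pathway protein that other epithelia also make, at 28.4 CPM in dry eye and 23.2 CPM in control. The mucin of goblet cells Muc5ac was not analysed here.

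Corneal markers were not absent. Krt12 had 6734 CPM in dry eye and 8167 CPM in control when Conj cells were summed, and Aldh3a1, a detoxifying enzyme abundant in the cornea, had 4665 CPM in dry eye and 6189 CPM in control. The cells differed widely in Krt12, however. The median Conj cell had 1695 CPM in dry eye and 1481 CPM in control, below the median of Immune cells, which should not make Krt12, at 3448 CPM in dry eye and 2369 CPM in control. Those Immune cells were few, 31 in dry eye and 20 in control, and shallow, with a median of 918 UMIs in dry eye and 1351 UMIs in control. Basal cells had a median of 18102 CPM in dry eye and 19754 CPM in control. The 90th percentile of Conj cells was 12163 CPM in dry eye and 18205 CPM in control, within the range of corneal cells, so the class held cells with and without a corneal level of Krt12. Pax6, a transcription factor of the whole ocular surface, had 304 CPM in dry eye and 322 CPM in control.

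Genes that set Conj apart from all other cells of the same library were ranked by the smaller of the lower interval bounds of the 2 libraries. Since the class was built from these counts, they describe it and are no test of it. Of 9459 genes with enough counts, 285 (3.01%) were at least 2-fold higher in Conj in both libraries, and 381 (4.03%) were at most 0.5-fold. The leading gene was Has2, which makes hyaluronan, with 10.9 CPM in dry eye Conj cells and 13.7 CPM in control Conj cells, 82.5 and 60.2 times the level of the other cells. The 6 markers were all among the 20 leading genes. The others included lipid genes, namely Sptssb, a subunit of the enzyme that starts sphingolipid synthesis, Acsf2, an acyl-CoA synthetase, and Faah, which degrades fatty acid amides. In control, LSC cells had more of the first 2, with 25.3 CPM of Sptssb against 19.6 CPM in Conj cells and 9.31 CPM of Acsf2 against 9.02 CPM in Conj cells. Signalling genes were Ptger4, a receptor for prostaglandin E2, Tnfsf10, the death ligand TRAIL, and Ccl6, a chemokine. St3gal4, a sialyltransferase, had 24.0 CPM in dry eye and 22.0 CPM in control Conj cells, and its next class, LSC, had 9.37 CPM in dry eye and 7.98 CPM in control. Olfm4, a secreted glycoprotein of mucosal epithelia, was among them, with 8.34 CPM in dry eye and 14.1 CPM in control.

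Among genes that were scarce in Conj, the metallothionein Mt1 had 285 CPM in dry eye and 185 CPM in control Conj cells, against 1373 CPM in dry eye and 632 CPM in control over the other cells. The Notch ligand Jag2 had 8.73 CPM in dry eye and 5.39 CPM in control Conj cells, against 31.3 CPM in dry eye and 24.4 CPM in control over the other cells. Wnt10a, a secreted Wnt protein, had 6.41 CPM in dry eye and 4.17 CPM in control Conj cells, against 29.8 CPM in dry eye and 24.6 CPM in control elsewhere. Krt15, a keratin of the limbus, was by contrast abundant in Conj, at 15181 CPM in dry eye and 15922 CPM in control, against 5996 CPM in dry eye and 7106 CPM in control LSC cells.

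To see how Conj cells vary among themselves, they were clustered alone, without 476 genes that were at least 1.5-fold apart between the libraries, which left out 4 of the markers, Krt4, Serpinb3a, Alox12e and Alox15. This gave 9 numbered subclusters, named here by number and leading genes. Levels in the next paragraphs are CPM over the subcluster's cells of both libraries. Because the subclusters were formed from counts of the same cells, these levels are a description. The genes left out, with those 4 markers, had no part in forming them.

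Subclusters 9, 7 and 1 carried the marker programme most fully. Subcluster 9, with 353 cells, had all 6 markers above the class level, among them Krt4 at 5976 CPM, Alox15 at 88.0 CPM and Serpinb3a at 908 CPM, and was also led by Krt8, a keratin of simple epithelia, at 178 CPM, and Agr2 at 89.1 CPM. Its median cell had 562 CPM of Krt12. Subcluster 7 was the largest, with 828 cells, and was led by Lgi2, the tetraspanin Cd63 and the peptidase Anpep. It held most of the limbal gene Gpha2, at 290 CPM, and of Cyp2f2, at 108 CPM, and it had Krt15 at 26140.1 CPM and Krt5 at 8844 CPM. Subcluster 1, with 410 cells, was led by Aox3, an aldehyde oxidase, with Cyp2a5 at 1012 CPM and Olfm4 at 35.8 CPM, and had the lowest Krt12 of all, with a median of 359 CPM per cell.

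Subclusters 2, 8 and 4 kept Krt4 beside other programmes. Subcluster 2, with 457 cells, had Krt7, a keratin of ducts and simple epithelia, at 1017 CPM, the decoy receptor Il1r2 at 79.1 CPM and the interferon-induced Ifit3b at 140.1 CPM. Subcluster 8, with 140 cells, was led by Ftl1, the light chain of the iron store ferritin, Mt1 and Mt2, and had Krt12 at 10217 CPM and a median of 15996.5 UMIs per cell. Subcluster 4, with 284 cells, combined Krt4 at 2122 CPM with corneal and surface genes, among them Aldh3a1 at 9360.5 CPM, Krt12 at 8015 CPM, the water channel Aqp5 at 10234 CPM and Lypd2 at 14577 CPM.

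In 3 subclusters the markers were low. Summed, the 6 markers had 456 CPM in subcluster 3, 335 CPM in subcluster 5 and 402 CPM in subcluster 6, each under 1/3 of the 2876 CPM of the class. Subcluster 3, with 377 cells, had Krt23 at 215 CPM, the immune checkpoint ligand Cd274 at 115 CPM, Muc4 at 2842 CPM and the surface antigen Psca at 27930.3 CPM. Subcluster 5, with 378 cells, had Psca at 31334 CPM and the interferon-induced genes Oasl2 at 390 CPM and Zbp1 at 77.4 CPM. In a clustering of all cells, the cluster that held most of either, with 59.7% of subcluster 3 and 51.3% of subcluster 5, consisted chiefly of Squam cells. Subcluster 6, with 177 cells, was led by genes of cell division, with Cenpf, a kinetochore protein, at 118 CPM and Pclaf, a partner of the replication clamp, at 130.4 CPM. Its cells had a median of 38885 UMIs and 5705 genes and Krt12 at 23774 CPM, and 89.3% of them fell in a cluster that was chiefly Wing cells. For these 3 subclusters the deposited name does not match the 6 markers, but they were unlike in other genes. Median Krt12 per cell was 732 CPM in subcluster 3, 3312 CPM in subcluster 5 and 25590.5 CPM in subcluster 6. Squam cells had medians of 15692 CPM in dry eye and 10521 CPM in control. Mucosal and simple keratins summed to 10404, 9358 and 1477 CPM in subclusters 3, 5 and 6, against 11364 CPM over the class. The 3 are called low-marker subclusters here, a threshold set after the values were seen. The counts of genes past a fold, the share of the class in each library and the share of dividing cells are also given without them. Whether subcluster 6 contains droplets with more than 1 cell was not tested.

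**Figure D2:**
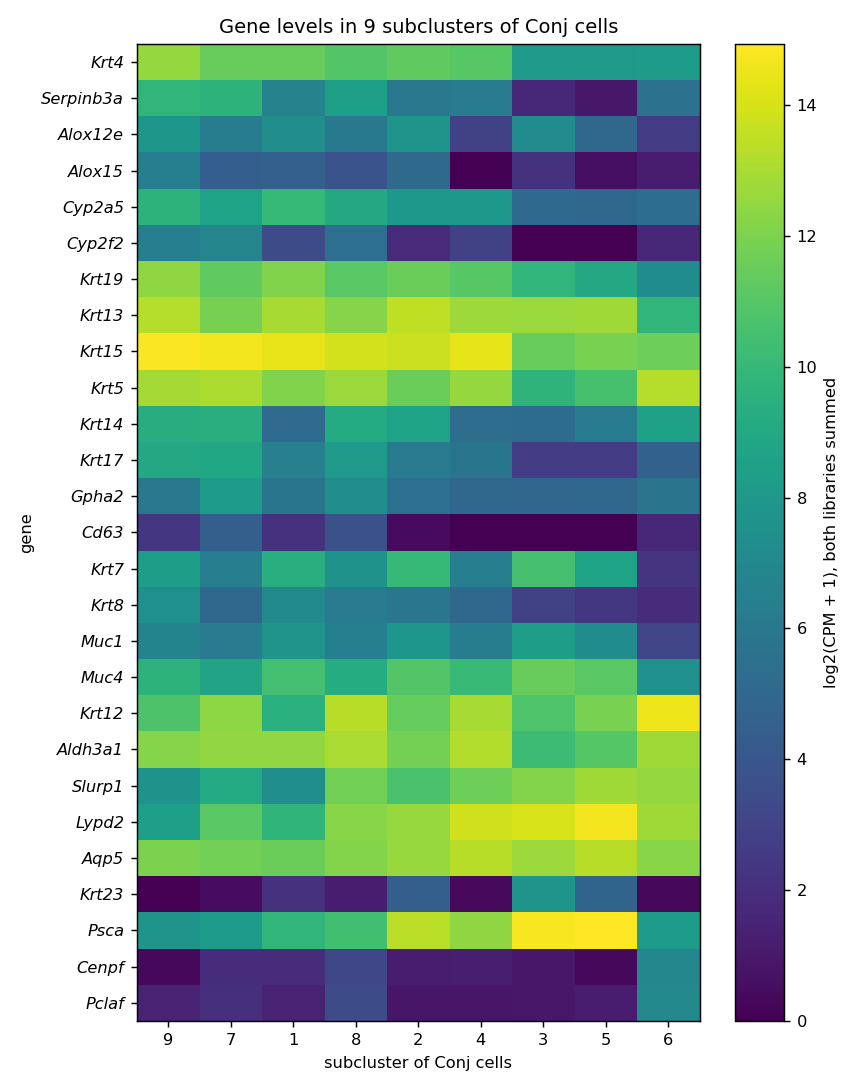
Levels of 27 genes (rows) in the 9 subclusters of Conj cells (columns), as log2(CPM + 1) over the cells of both libraries. Krt4, in the top row, is bright in subclusters 9, 7 and 1 and darker in 3, 5 and 6, at 272, 271 and 304 CPM, while Psca and Lypd2 are brightest in 3 and 5 and Cenpf and Pclaf in 6.

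The deposited class and a separate clustering of the same counts overlapped in part. With all cells clustered together, 2 of 22 clusters consisted chiefly of Conj cells, and they held 2199 Conj cells (64.6%) and 88 others. A further 612 Conj cells (18.0%) were in clusters that were chiefly Squam, 471 (13.8%) in clusters chiefly Wing and 114 (3.35%) in clusters chiefly LSC.

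The makeup of the class differed between the libraries by more than counting error in several subclusters. Subcluster 4 made up 5.11% of dry eye Conj cells (4.15 to 6.22) and 12.1% of control Conj cells (10.6 to 13.9). Subcluster 5 was the opposite case, with 13.8% in dry eye (12.3 to 15.5) and 7.93% in control (6.64 to 9.38). Subcluster 1 took 10.2% in dry eye (8.87 to 11.7) and 14.2% in control (12.5 to 16.0). Larger dry eye shares were also seen for subcluster 2, at 15.1% in dry eye and 11.4% in control, and for subcluster 9, at 11.9% in dry eye and 8.57% in control. Subcluster 7 was alike, with 23.9% in dry eye (22.0 to 25.9) and 24.8% in control (22.7 to 27.03).

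Together, the low-marker subclusters held 30.7% of dry eye Conj cells (28.6 to 32.9) and 23.5% of control Conj cells (21.4 to 25.6). Without them, Conj cells made up 7.76% of the dry eye library (7.36 to 8.18) and 6.85% of the control library (6.48 to 7.24). The low-marker Conj cells by themselves were 3.44% of the dry eye library (3.17 to 3.73) and 2.10% of the control library (1.89 to 2.33).

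**Figure D3:**
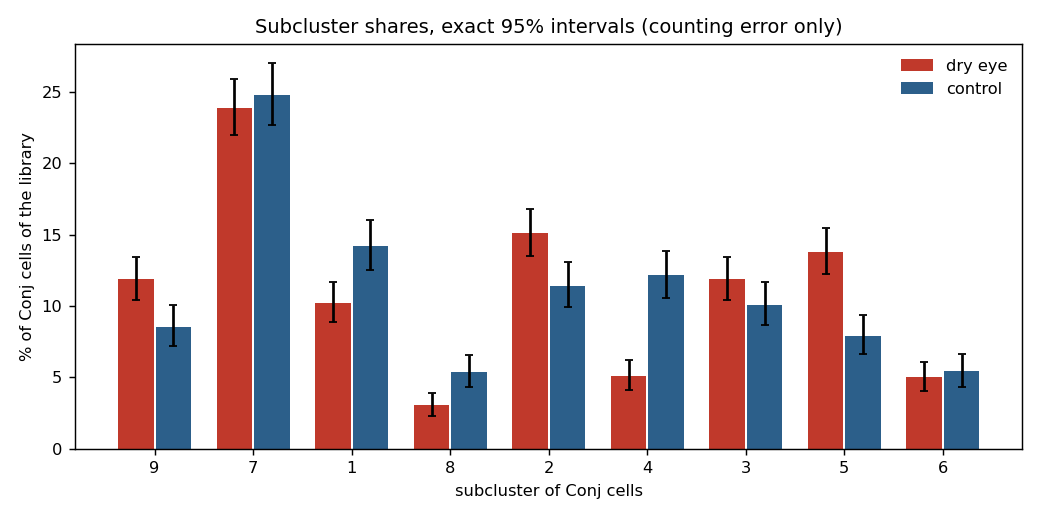
Share of each library's Conj cells in the 9 subclusters, with dry eye bars left of control bars and exact 95% intervals for counting error only. The dry eye bar is lower for subclusters 1, 8 and 4 and higher for 9, 2 and 5, and the intervals overlap for 7, 3 and 6.

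Dividing cells were rare in Conj in both libraries. With cells thinned to 3000 UMIs, Mki67 or Top2a, genes of cycling cells, was counted in 3.08% of dry eye Conj cells (2.33 to 3.99) and 2.90% of control Conj cells (2.11 to 3.87). Squam cells, mostly at the end of differentiation, gave 0.841% in dry eye and 0.502% in control as a background, with medians of 9518 UMIs in dry eye and 9342.5 UMIs in control. On the same measure Basal cells gave 2.20% in dry eye and 2.12% in control, and Wing cells 1.91% in dry eye and 1.08% in control. LSC cells gave 4.10% in dry eye and 6.49% in control. Without thinning the Conj shares were 8.59% in dry eye and 7.48% in control. Of the 275 Conj cells with such a UMI, 169 were in subcluster 6, and 57 were in subcluster 7. Without the low-marker subclusters the thinned shares were 0.814% in dry eye (0.391 to 1.49) and 0.692% in control (0.299 to 1.36), with intervals that include the Squam values. The unthinned shares were 4.94% in dry eye and 2.67% in control. Subcluster 6 was led by genes of cell division, and 95.5% of its cells had such a UMI without thinning. Leaving it out thus lowers the share by construction, so these shares cannot show how often marker-bearing Conj cells divide.

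The main comparison asked how gene levels within Conj cells differed between dry eye and control. Of 17891 genes in the table, 4525 were compared, those with 50 or more UMIs in Conj cells and a level of 20 CPM or more in 1 library. Among these, 10 (0.221%) were at least 2-fold higher in dry eye and 0 (0%) at least 2-fold lower. Since 1 library sufficed for the minimum level, a gene could enter through the library where it was high. Of the 10, Alox15 and Gch1 reached 20 CPM in dry eye only. At 1.5-fold, 32 genes (0.707%) were higher and 5 (0.11%) lower, and the median log2 ratio of all genes was -0.03. The same comparison gave 14 higher and 3 lower of 4655 genes in Basal cells (0.301% and 0.0644%). It gave 48 higher and 4 lower of 4755 genes in Wing cells (1.01% and 0.0841%), and 40 higher and 25 lower of 3686 genes in Squam cells (1.09% and 0.678%). At 1.5-fold, 0.602% of the genes were higher and 0.473% lower in Basal cells, 2.25% higher and 1.14% lower in Wing cells, and 3.17% higher and 5.53% lower in Squam cells. Without the low-marker subclusters, 16 of 4477 genes were at least 2-fold higher in dry eye Conj cells and 1 lower, and 54 were at least 1.5-fold higher and 10 lower. The 16 held 9 of the 10. The other, Gch1, had a larger ratio there, 3.38, and at 13.8 CPM in dry eye missed only the minimum level. The added genes were AA467197, Akr1c18, Alox12e, Bglap3, Cnfn, Gstm1 and Slc6a6, of which Akr1c18, at 2.04, and Cnfn, at 4.07, were past 2-fold in all Conj cells too but below the minimum level, while the 1 lower gene was Ppp1r3c, a regulator of glycogen synthesis. Of the 16, Akr1c18, Alox15, Bglap3, Cnfn, Gm44275 and Gstm1 reached 20 CPM in dry eye only, and Ppp1r3c reached it in control only.

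The largest ratio among these genes was that of Krt14, which in skin and cornea pairs with Krt5 in the basal layer (chromosome 11, 100203162 to 100207548). It had 581 CPM in dry eye Conj cells and 57.4 CPM in control Conj cells, a ratio of 10.1 (9.54 to 10.8). After thinning it was counted in 31.8% of dry eye Conj cells (29.6 to 34.0) and 6.39% of control Conj cells (5.21 to 7.74), and without thinning in 53.7% in dry eye and 16.8% in control. Squam cells, the class with the fewest Krt14 UMIs per cell, gave thinned shares of 17.7% in dry eye and 3.01% in control. The ratio exceeded 1 in each of the 9 subclusters, from 5.18 in subcluster 6 to 49.0 in subcluster 5, and was 13.3 (12.3 to 14.3) without the low-marker subclusters. It was not particular to Conj, since the ratio was 20.7 in Wing cells, 11.1 in Squam cells, 2.69 in Basal cells and 1.53 in LSC cells. Its partner Krt5 had 5989 CPM in dry eye and 5994 CPM in control, and the ratio of Krt15 was 0.95.

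Next in order were Lgals7, Apoe and, after Alox15, Gpha2. Lgals7, a galectin of stratified epithelia, had 156 CPM in dry eye and 36.2 CPM in control (ratio 4.31, 3.98 to 4.66). The lipid carrier Apoe had 175 CPM in dry eye and 44.1 CPM in control (3.96, 3.69 to 4.26). Gpha2, a glycoprotein hormone subunit made in the limbus, had 143 CPM in dry eye and 44.9 CPM in control (3.19, 2.97 to 3.44). These genes were not spread evenly over the class. In subcluster 7, Gpha2 had 426 CPM in dry eye and 90.8 CPM in control, a ratio of 4.70, and in subclusters 3 and 5 the ratios were 0.93 and 0.92 with intervals that included 1. The 10 cells with most Gpha2 held 25.1% of its dry eye UMIs and 15.7% of its control UMIs. In clusters of all cells that were chiefly Conj, Gpha2 was no longer past 2-fold. Higher levels in dry eye were not particular to Conj for these 3 genes. With intervals that excluded 1, Lgals7 was higher in all 7 other classes (ratios 1.60 to 3.47) and Gpha2 in 6 of 7 (0.97 to 2.29). Apoe was higher in 5 of 7 and lower in 2 (0.70 to 2.39).

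Ifitm3, an interferon-induced membrane protein also used as a limbal marker, had 65.3 CPM in dry eye and 25.2 CPM in control (ratio 2.60, 2.35 to 2.87), with ratios of 5.12 in subcluster 7 and 0.49 in subcluster 3. Tmem176b, a membrane protein, had 43.4 CPM in dry eye and 21.4 CPM in control (2.03, 1.82 to 2.27), and its neighbour Tmem176a had a ratio of 1.84 (1.70 to 2.0002). As the mean of each cell's CPM the ratio was 1.95 for Ifitm3 and 1.73 for Tmem176b, and Tmem176b was also under 2-fold without the 5% of cells with most UMIs, at 1.85, and in clusters chiefly of Conj cells, at 1.75. Both genes were also higher in all 7 other classes, with intervals that excluded 1. Those ratios ran from 1.37 to 14.7 for Ifitm3 and from 1.19 to 2.66 for Tmem176b. Of the 4 compared genes of the limbal list, 2 were at least 1.5-fold higher, Gpha2 and Ifitm3, and 0 lower, against 0.707% and 0.11% over all genes. Krt15 had a ratio of 0.95 and Lrig1, a receptor regulator, 0.84. The matrix and adhesion list of the basal layer had 0 of 9 past 1.5-fold. LSC cells had far higher levels of Gpha2, at 3475 CPM in dry eye and 3067 CPM in control, and of Apoe, at 2819.8 CPM in dry eye and 3059 CPM in control. A total of 114 Conj cells clustered with LSC cells, and their part in these ratios was not tested.

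**Figure D4:**
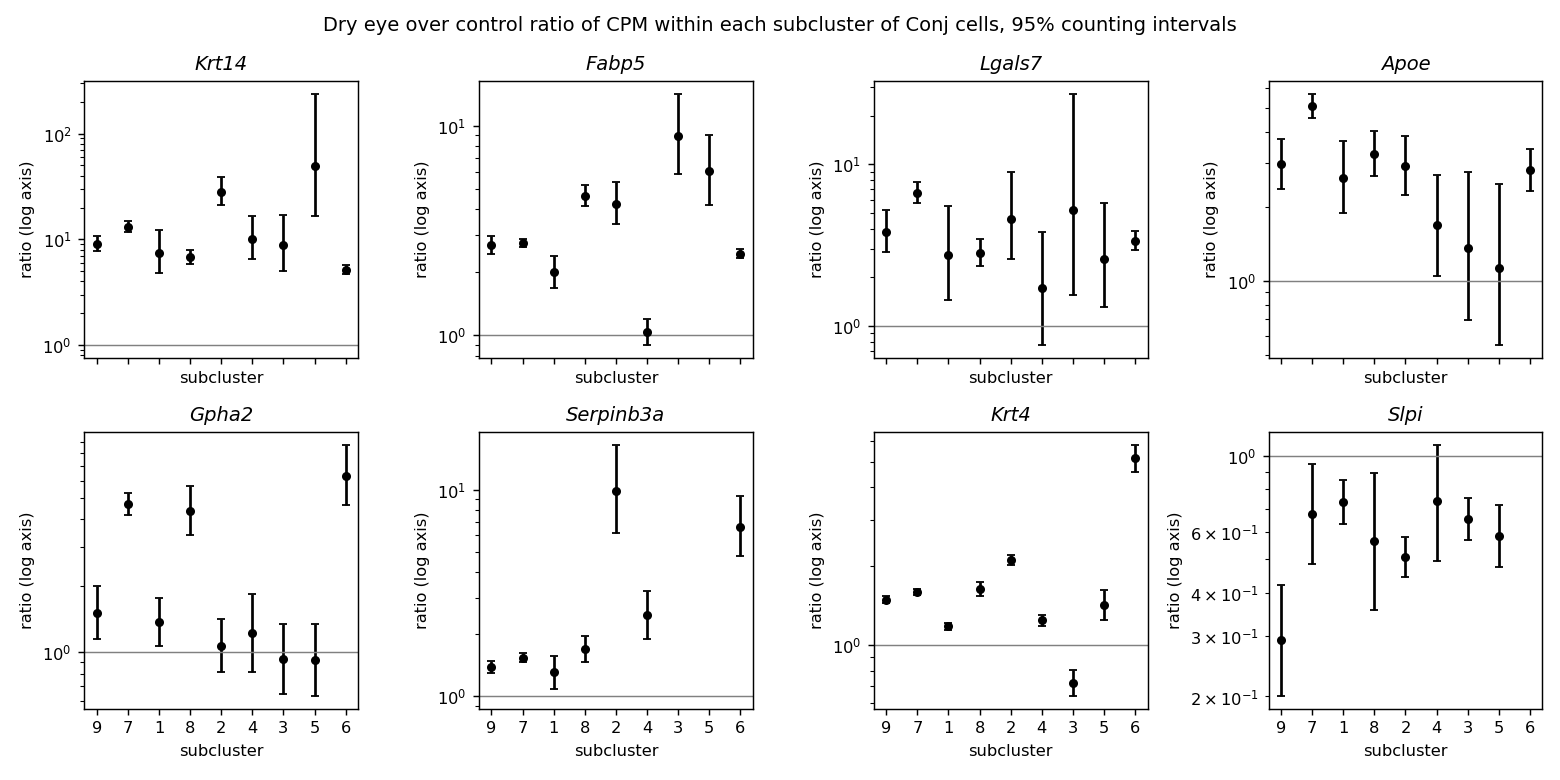
Ratio of CPM, dry eye over control, within each subcluster of Conj cells for 8 genes, on log axes, with 95% counting intervals and a line at 1. Only subclusters with at least 20 UMIs of the gene and counts in both libraries are drawn. Krt14 lies above 1 in all 9 subclusters, Gpha2 is highest in 6, 7 and 8 and near 1 in 2, 3, 4 and 5, and Slpi lies below 1 in all 8 subclusters drawn.

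The conjunctival markers themselves were mostly higher in dry eye. Of the 6, 4 had ratios of at least 1.5 and none had a ratio of 0.67 or less, against 0.707% and 0.11% of all genes compared. The median log2 ratio was 0.70 against -0.03 over all genes. Its interval from the ordered ratios, -0.21 to 1.69, included 0. Alox15 counts in the 4 and in the median though it met the 20 CPM minimum only in dry eye, where it was high. It had 28.8 CPM there and 8.93 CPM in control. The ratio was 3.23 (2.74 to 3.82) for Alox15, 1.78 (1.72 to 1.85) for Serpinb3a, 1.70 (1.60 to 1.81) for Alox12e and 1.56 (1.54 to 1.58) for Krt4. Cyp2f2 had 1.45 (1.30 to 1.61), and Cyp2a5 alone was lower in dry eye, at 0.87 (0.84 to 0.89). The rise of Krt4 was not particular to Conj, since 6 of 7 other classes had ratios above 1 with intervals that excluded 1. Serpinb3a was likewise higher in 3 of 5 other classes with at least 20 UMIs and lower in 1, and Alox15 was higher in 1 of 2. Alox12e was higher in 0 of 4 and lower in 2. A few cells carried much of Alox15, since the 10 with the most held 25.5% of its dry eye UMIs and 52.7% of its control UMIs.

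Within subclusters the marker ratios spread widely. Alox15 had a ratio of 35.7 (12.02 to 174) in subcluster 2 and 10.6 (5.93 to 20.9) in subcluster 7, and of 1.53 (1.21 to 1.94) in subcluster 9, where it was most abundant. Serpinb3a was 9.80 times higher in dry eye in subcluster 2, with 91.6 CPM in dry eye and 9.34 CPM in control, and 1.38 times in subcluster 9. Krt4 was higher in dry eye in 8 subclusters and lower in subcluster 3, where it had 232 CPM in dry eye and 323 CPM in control. Without the low-marker subclusters the ratios were 1.61 for Krt4 and 2.03 for Alox12e. Sptssb, another leading gene of the class, went the same way, with 36.5 CPM in dry eye and 19.6 CPM in control (1.86, 1.65 to 2.10). Has2 did not, at 0.80 (0.67 to 0.94), nor did Olfm4, at 0.59 (0.49 to 0.71).

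Other genes among the 15 highest had varied roles. Fabp5, an intracellular carrier of fatty acids, had 878 CPM in dry eye and 323 CPM in control (ratio 2.72, 2.65 to 2.79), and the ratio was 6.32 in Squam and 3.61 in Wing cells. Gch1, which starts synthesis of the cofactor tetrahydrobiopterin, had 20.3 CPM in dry eye and 9.76 CPM in control (2.08, 1.76 to 2.46). Pbp2, a phosphatidylethanolamine-binding protein, had 71.3 CPM in dry eye and 40.6 CPM in control (1.76, 1.62 to 1.91). Sprr1a, a precursor of the cornified envelope, had 61.3 CPM in dry eye and 34.7 CPM in control (1.77, 1.61 to 1.93). Its ratio was much larger in corneal classes, at 30.6 (29.3 to 32.1) in Wing and 25.5 (23.6 to 27.6) in Squam cells, where control levels were 22.2 and 19.0 CPM. Sprr1b, another such precursor, had 167 UMIs in 28 dry eye Conj cells, 77.8% of them in 10 cells, and was listed at 0 in control. In all 15 genes chosen as highest the difference exceeded the bound for free RNA, the upper limit of the class with the fewest UMIs per cell of the gene. They were chosen by their ratio in the same counts, so this count is no independent check.

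Keratins of stressed epithelium were higher in dry eye by less than 2-fold in sum and differed much in distribution. Of the 4 compared, 1 was at least 1.5-fold higher, Krt17, and 0 lower, against 0.707% and 0.11% over all genes. Their median log2 ratio was 0.37 against -0.03 over all genes. Krt16 had 229 CPM in dry eye Conj cells and 168 CPM in control Conj cells, a ratio of 1.36 (1.30 to 1.42). In the corneal classes the ratio was 34.2 in Basal, 25.2 in Wing and 5.27 in Squam cells. More dry eye Conj cells had a UMI of it, 16.5% (14.8 to 18.3) in dry eye and 8.37% (7.02 to 9.87) in control after thinning, while 10 cells held 27.7% of the dry eye and 41.0% of the control UMIs. Basal cells gave 4.82% in dry eye and 0.134% in control on the same measure. By subcluster the Krt16 ratio ran from 0.15 in subcluster 1 to 14.8 in subcluster 6, with 593 CPM in dry eye and 772 CPM in control in subcluster 9. Krt17 had 226 CPM in dry eye and 135 CPM in control (1.67, 1.59 to 1.75), Krt6a a ratio of 1.22 and Krt6b a ratio of 1.09. Krt6a and Krt6b are near-identical genes, and reads may be split between them.

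**Figure D5:**
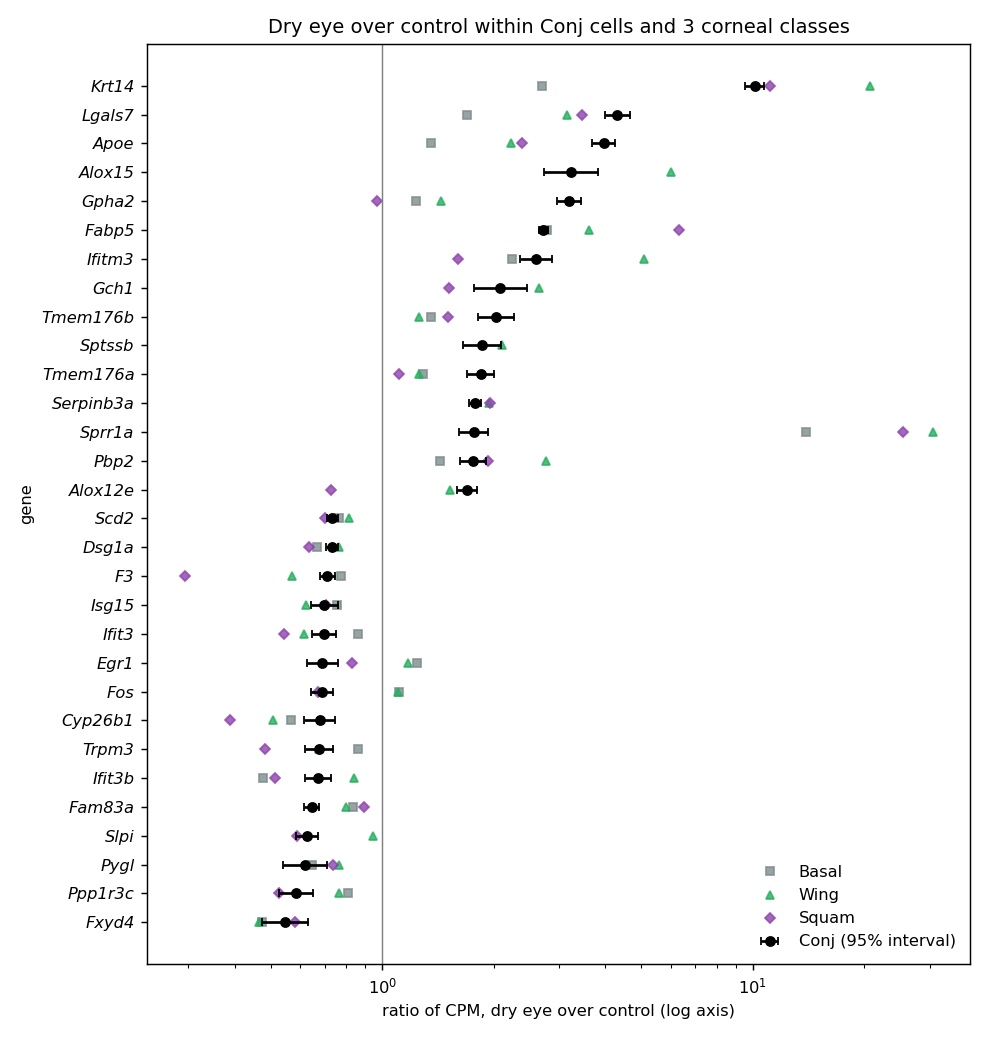
Ratio of CPM, dry eye over control, on a log axis, for the 15 genes chosen as highest and the 15 chosen as lowest in Conj cells (black, with 95% counting intervals), and for the same genes in Basal, Wing and Squam cells where at least 50 UMIs were counted. The Conj ratio of Krt14 is 10.1 and lies left of Wing and Squam and right of Basal, and that of Sprr1a, at 1.77, lies left of the other classes, while the Gpha2 ratio, at 3.19, lies right of them.

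Genes that were lower in dry eye Conj cells were lower by less. The 5 past 1.5-fold were Fxyd4, a regulator of the sodium pump, with 12.5 CPM in dry eye and 22.9 CPM in control (ratio 0.55, 0.47 to 0.63), Ppp1r3c (0.58), Pygl, a glycogen phosphorylase (0.62), Slpi (0.63) and Fam83a (0.65). Slpi, a secreted inhibitor of neutrophil proteases with antimicrobial action, had 57.7 CPM in dry eye and 92.2 CPM in control (0.58 to 0.67). It was below 1 in all 8 subclusters with enough counts, 7 of them with intervals that excluded 1, from 0.29 in subcluster 9 to 0.74 in subcluster 4. The ratio was 0.59 in Squam cells, and Basal cells had 0.202 CPM in dry eye and 0.223 CPM in control. The other 4 genes were not lower in Conj alone, since each of 7 other classes had a ratio below 1 with an interval that excluded 1. Those ratios ran from 0.16 to 0.58 for Fxyd4, 0.22 to 0.81 for Ppp1r3c, 0.16 to 0.77 for Pygl and 0.63 to 0.90 for Fam83a. Ppp1r3c and Pygl act on glycogen, but the 9 compared members of the glycolysis list had a median log2 ratio of -0.04.

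Interferon-induced genes were split. Isg15, a ubiquitin-like modifier, had 42.1 CPM in dry eye and 60.2 CPM in control (ratio 0.70, 0.64 to 0.76), and Ifit3 and Ifit3b, near-identical antiviral genes whose reads may be shared, had ratios of 0.70 and 0.67. Ifitm3 and Oasl1 were higher in dry eye, the second with 63.9 CPM in dry eye and 42.0 CPM in control (1.52, 1.40 to 1.66). Of the 19 compared genes of the interferon and antigen presentation list, 1 was at least 1.5-fold higher and 0 lower, against 0.707% and 0.11% over all genes. The median log2 ratio of that list was -0.04. The immediate early genes Fos, with 57.3 CPM in dry eye and 83.3 CPM in control (0.69, 0.64 to 0.74), and Egr1 (0.69) were lower, and the 14 compared genes of that list had a median of -0.13. Other genes chosen as lowest were F3, the tissue factor that starts clotting (0.71), Cyp26b1, which degrades retinoic acid (0.68), the lipid desaturase Scd2 (0.73), the desmosomal cadherin Dsg1a (0.73) and the cation channel Trpm3 (0.68). For these 5 genes each of 7 other classes had a ratio below 1 with an interval that excluded 1. Of the 15 lowest genes, 5 exceeded the bound for free RNA, namely Slpi, Pygl, Ifit3b, Ifit3 and Isg15, and 10 did not.

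Most gene groups tied to the conjunctiva's functions were near the median of all genes. At 1.5-fold, 0.707% of all 4525 compared genes were higher and 0.11% lower, so a count of 0 in lists this short says little. Of 24 compared junction and desmosome genes, 0 were past 1.5-fold, with a median log2 ratio of 0.01, although Cldn4, a tight junction claudin, had 45.5 CPM in dry eye and 61.5 CPM in control (0.74, 0.68 to 0.80). Of 11 compared genes of membrane mucins and glycan transfer, 1 was past 1.5-fold, Lgals7, and the median was -0.06, with Muc4 at 1155 CPM in dry eye and 1160 CPM in control (ratio interval 0.98 to 1.01) and Muc1 at 0.89 (0.84 to 0.93). The 15 conjugation and antioxidant genes had 0 past 1.5-fold and a median of -0.17. The interval of that median from the ordered ratios, -0.29 to -0.07, lay below the -0.03 of all genes. Of 10 retinoid genes 0 were past 1.5-fold, with a median of -0.03, and of 5 cytochrome P450 genes 0, with a median of -0.04. Of 24 epithelial transcription factors 1 was past 1.5-fold, Barx2, a homeobox factor, with 41.8 CPM in dry eye and 25.7 CPM in control (1.63, 1.46 to 1.81), and the median was -0.01. Among 14 serpins and stefins, 3 were at least 1.5-fold higher, Serpinb3a, Csta1 and Stfa3, and 0 lower, with a median of 0.13. Serpinb3a was already counted among the 6 markers. The 7 compared osmotic response genes had 0 past 1.5-fold and a median of -0.0037. Of 7 water and ion transport genes, Fxyd4 alone was past 1.5-fold, and the median was -0.03, with Aqp5 at 0.95 (0.94 to 0.95).

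Cytokine genes differed little between the libraries. Of 8 compared cytokines, chemokines and alarmins, 0 were past 1.5-fold, with a median log2 ratio of 0.02. Over all genes 0.707% were higher and 0.11% lower at 1.5-fold, so that count of 0 says little. The chemokines Cxcl2 and Ccl20 were listed at 0 in dry eye Conj cells, and all 251 control UMIs of Cxcl2 and all 50 of Ccl20 came from 1 cell each. The epithelial alarmin Tslp, which starts type 2 immune responses, had 4.29 CPM in dry eye and 2.94 CPM in control (1.46, 1.05 to 2.03). Wfdc18, a small secreted protease inhibitor of the antimicrobial list, had 8.73 CPM in dry eye and 0.539 CPM in control (16.2, 8.87 to 32.9), with 226 UMIs in 69 dry eye cells and 11 UMIs in 10 control cells. Lcn2, an iron-binding defence protein, had 11 UMIs in dry eye and 1 in control.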

How the data were processed

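Single-cell libraries of dissociated mouse corneal epithelium were made, per the labels, with a Chromium 3′ kit (v3.1). The submitters' processing notes list Cell Ranger 6.0.1, Seurat 4 and mm10 without saying what each was used for. The deposited table holds raw UMI counts, not normalized, for 17891 genes and 33885 cells, and the authors' deposited cell table gives each cell's library and 1 of 13 classes. Cell filters, classification and doublet treatment are not given in the sources used here. In the control library 764 genes were at 0, 8 were in 1 cell, 98 in 2 cells and 484 in 3 cells, so rarer genes may be listed at 0.

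Counts were summed per class and library and divided by the sum to give CPM (1 UMI was 0.0386 CPM in dry eye and 0.0490 CPM in control Conj cells). Ratios have conditional exact and shares exact Clopper-Pearson 95% intervals. Intervals and the floor of 3 counts cover counting error only, since cells of a pool are not replicates. Free RNA was not removed. For each named gene the upper limit of the class with the fewest UMIs per cell served as a bound. The alternative with free RNA subtracted took off the mean of that class instead. Conj was among the classes searched, so a gene with its fewest UMIs per cell in Conj was set to 0 there. No doublet caller was run, and leaving out the 5% of cells with most UMIs was an alternative. Cells were thinned to 3000 UMIs for shares, which left out 53 dry eye and 46 control Conj cells. Leiden clustering (scanpy 1.11.5, igraph 0.11.9, 2000 variable genes, 30 components, 15 neighbours) used resolution 0.7 for Conj cells and 1 for all cells. Coordinates are 1-based, from the GENCODE annotation of mm10. The design named Muc5ac, which is not analysed here.

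Genes to name were set by rule: the 6 markers, the 20 leading genes, in dry eye over control the 15 genes at either end, ordered by whichever interval bound lies closer to 1, without predicted, mitochondrial, ribosomal protein and haemoglobin genes, the 2 highest and 2 lowest of each of 42 lists with at least 50 UMIs, 5 per subcluster, and 16 fixed genes. Other genes past a fold, Oasl1, Csta1, Stfa3 and those added without the low-marker subclusters, were picked with their values in view, as were the scarce genes given. The members and lists were chosen with earlier results of these data known. The interval code was tested on simulated counts.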

Additional observations from a re-analysis of the deposited data

How the results depend on the processing

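No paired analysis was possible because each group is 1 pooled library. Against 10 genes at least 2-fold higher and 0 lower in dry eye Conj cells, the counts were 218 and 85 of 11960 genes with at least 20 UMIs and no CPM minimum, 20 and 12 with free RNA subtracted, 16 and 1 without the low-marker subclusters, and 32 and 5 at 1.5-fold. They were 6 higher in own clusters that were chiefly Conj, and 2 lower with the mean of each cell's CPM. The 6 were among the 10, without Gch1, Gm44275, Gpha2 and Tmem176b. Of the 10, the mean of each cell's CPM lost Ifitm3 and Tmem176b, leaving out the 5% of cells with most UMIs lost Tmem176b, and subclusters set to control shares lost Gch1 and Gm44275. The share of Conj cells was 12.6% of dry eye cells without the starred classes, 7.48% of dry eye and 6.06% of control cells in own clusters, and 7.76% of dry eye and 6.85% of control cells without the low-marker subclusters. Dividing shares were 0.814% in dry eye and 0.692% in control without the low-marker subclusters, which leaves out subcluster 6, led by genes of cell division. They were 1.69% in dry eye and 1.93% in control at 1500 UMIs, and 82.2% in dry eye and 86.2% in control for at least 2 UMIs of a G2/M list. That list also marked 72.8% of dry eye and 89.99% of control Squam cells, so it does not mark division here. The causes of these shifts were not tested. The 20 and 12 with free RNA subtracted can include genes set to 0 in a library where Conj had the fewest UMIs per cell. Over 58 named genes and 579 alternative values, 414 stayed within the interval, 165 moved beyond it, and 560 stayed on the same side of 1. For the 15 highest and 15 lowest genes, all 150 alternative ratios of either set stayed on their side of 1. Those genes were chosen for ratios far from 1 and the alternatives reuse the same counts, so this is no independent check. For list medians, 230 of 242 moved by less than their interval. Depth limits genes with few UMIs, whose intervals are wide, and none of the intervals covers differences between animals.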
